A study of Bos taurus with 12 samples.

Results

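Central carbon metabolism is described here through 46 genes: the enzymes of glycolysis, the enzymes and kinases that decide the fate of pyruvate, and the enzymes of the citric acid cycle and the pentose phosphate pathway. Their expression was followed in endometrium, the lining of the uterus, in biopsies of Simmental heifers. Of these genes, 41 had a probe set (a group of short probes for 1 transcript) annotated with that gene symbol alone, and 39 were kept because its log2 value passed 4 on 3 or more of the 12 arrays. They are 39 of 6781 genes kept in all. By branch, 16 of 18 glycolysis genes, 8 of 10 pyruvate genes, 12 of 15 citric acid cycle genes and 3 of 3 pentose phosphate genes were kept. HK2, PDK1, IDH3B, DLST and MDH1 were not analysed here. ENO2, an enolase, and FBP1, a fructose bisphosphatase, had a probe set under the filter on every array, with a highest log2 value of 2.17 and 1.76. ALDOC lay just inside the filter, above it on 9 of 12 arrays, with values from 3.48 to 4.62. Where a gene had several kept probe sets, as 10 members did, the one with the highest mean over the arrays stands for it.

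There were 4 groups with 3 arrays each. CDd14 and CDd7 are biopsies of day 14 and day 7 of the oestrous cycle from heifers that later delivered a calf, and NPd14 and NPd7 are biopsies of the same days from heifers that came back into heat at day 21 and were counted as not pregnant. All biopsies came from the cycle before transfer, and an embryo from which a biopsy had been cut was transferred at day 7 of the following cycle. Each array carried RNA of a pool. How many heifers made up a pool, and whether the same heifers gave both days, is not stated in the labels, so p-values measure only the spread between these pools.

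Glycolysis splits glucose into pyruvate in the cytosol and yields some ATP on the way. Pyruvate is then reduced to lactate, or enters mitochondria, where pyruvate dehydrogenase turns it into acetyl-CoA for the citric acid cycle, while the pentose phosphate pathway diverts glucose to NADPH and ribose. In ruminants the endometrium passes glucose and other nutrients into the uterine lumen, and progesterone changes this secretion over the luteal phase.

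The arrays had medians between 4.89 and 5.06 on the log2 scale. Of 10 epithelial markers 9 were kept, among them EPCAM, CDH1 and KRT18, as were 10 of 14 stromal and 9 of 13 leukocyte markers. KRT8 and, of the hormone receptors of the uterus, PGR and ESR1 had probe sets under the filter on all arrays, with highest values of 1.70, 2.16 and 1.63. Of 8 endothelial markers only CLDN5 was kept, of 7 smooth muscle markers only MYLK, and of 6 red cell markers GYPC and AHSP. In bulk tissue, fewer cells of a type and less RNA per cell cannot be told apart.

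Among the members, CDd7 stood highest. It had the highest group mean for 27 of 39 genes, while CDd14 had it for 5, NPd14 for 0 and NPd7 for 7. Over all kept genes CDd7 was highest for 37.6%. All CDd7 pools stood high for the members. The members' mean log2 deviation from each gene's mean over the arrays was 0.16, 0.43 and 0.25 in CDd7 pools 1, 2 and 3. Among the other arrays it was highest in NPd7 pool 2, at 0.12. Still, 20 members had their highest value on the array of CDd7 pool 2, and 20 their lowest on that of NPd14 pool 3. The difference between 3′ and 5′ probe sets of the EF1A and GAPDH control transcripts, which reflects RNA integrity and labelling, was lowest on the first of these arrays (0.76) and highest on the other (1.88). By group it was 1.39 ± 0.071 in CDd14, 1.01 ± 0.22 in CDd7, 1.71 ± 0.23 in NPd14 and 1.38 ± 0.19 in NPd7 (log2, SD, n = 3 each). GAPDH is itself a member. The actin control hardly differed, at -0.15 on CDd7 pool 2 and -0.14 on NPd14 pool 3. For the added dap, lys and phe transcripts the difference was 4.70 ± 0.16 in CDd14, 4.27 ± 0.077 in CDd7, 4.90 ± 0.15 in NPd14 and 4.54 ± 0.21 in NPd7 (SD). The part of RNA quality or labelling in the members' values was not tested.

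**Figure D1:**
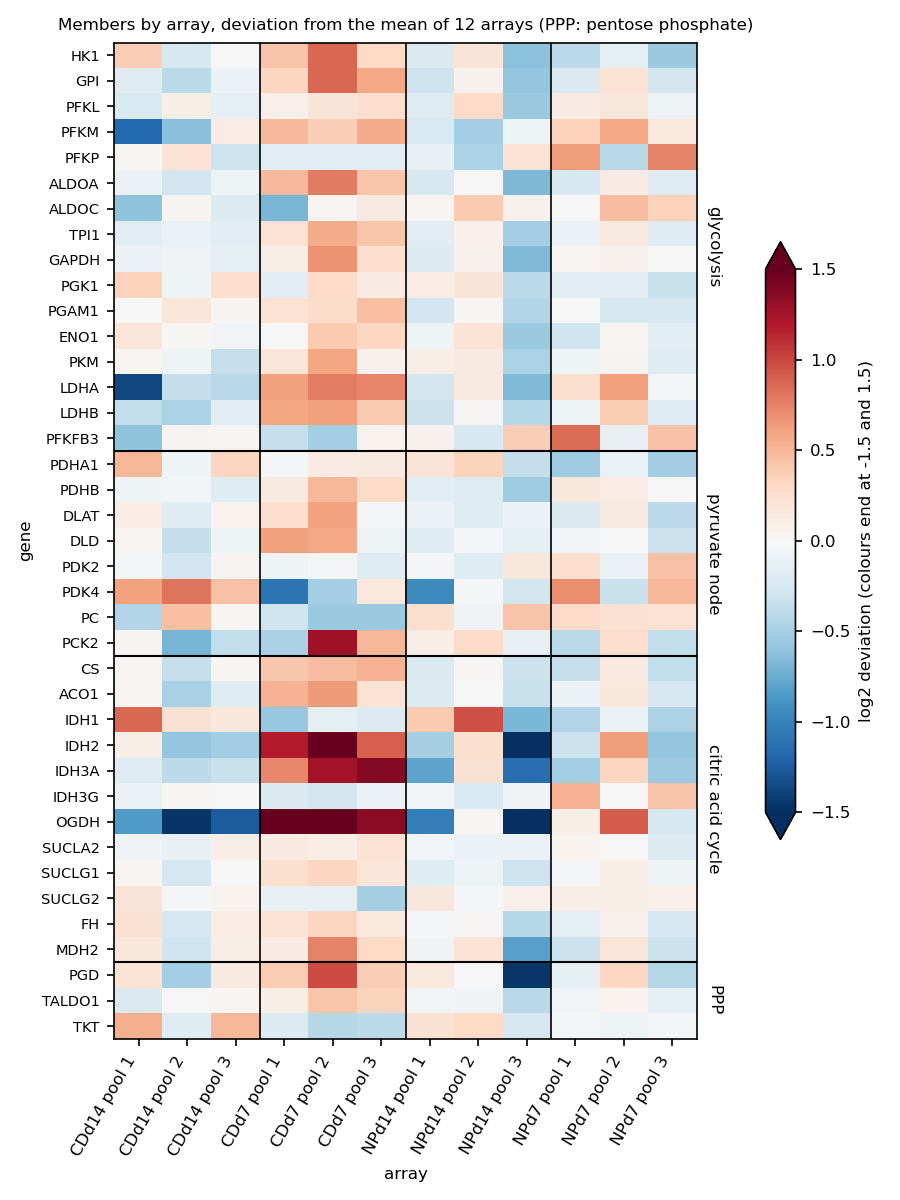
Each row is a member and each column an array, coloured by the log2 deviation from the gene's mean over 12 arrays, with branches separated by horizontal lines and groups by vertical lines. CDd7 has the highest group mean for 27 of 39 members, and NPd14 pool 3 holds the lowest value of 20.

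Members changed between days in the heifers that delivered a calf. Of 39 members, 10 fell at day 14 relative to day 7, 0 rose and 29 did not pass (limma, Benjamini-Hochberg adjusted p under 0.05 over all kept probe sets). The genes that fell were GPI, PFKM, ALDOA, TPI1, LDHA and LDHB of glycolysis, 6 of 16, and CS, ACO1, IDH3A and OGDH of the citric acid cycle, 4 of 12. Calls in either direction took in 25.6% of members and 24.1% of all kept genes, which is near the background. Genes called lower were 25.6% of members and 14.2% of all kept genes, and genes called higher 0% and 9.87%. The median log2 fold change was -0.35 over the members and -0.0042 over all kept genes. All CDd14 pools lay below all CDd7 pools in 48.7% of members and 22.8% of all kept genes, and above them in 12.8% and 22.1%.

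In the upper steps of glycolysis 3 genes fell. GPI, which interconverts the glucose and fructose phosphates, had log2 values of 10.97, 10.75 and 11.07 in CDd14, against 11.48, 12.01 and 11.74 in CDd7. The groups did not overlap, and CDd14 was 1.76-fold lower (log2 fold change -0.82 ± 0.21 SE, limma adjusted p = 0.0206). PFKM, a subunit of phosphofructokinase, which commits sugar to glycolysis, had values of 4.82, 5.36 and 6.10 in CDd14, against 6.47, 6.36 and 6.55 in CDd7. The CDd14 pools spread widely and all lay below the narrow CDd7 range, 2.05-fold lower (limma adjusted p = 0.0235), at a dim level. A dimmer probe set of PFKM differed by only -0.020 on the log2 scale (limma adjusted p = 0.884). ALDOA, the aldolase that cleaves fructose bisphosphate, had values of 12.13, 11.93 and 12.15 in CDd14, against 12.70, 12.99 and 12.64 in CDd7. These groups were apart too, 1.64-fold lower in CDd14 (limma adjusted p = 0.0219). The other upper genes did not pass: HK1, a hexokinase that traps glucose in the cell, had -0.48 ± 0.24, the phosphofructokinase subunits PFKL and PFKP had -0.27 ± 0.19 and 0.14 ± 0.29, the aldolase ALDOC -0.083 ± 0.24, and PFKFB3, which makes an activator of phosphofructokinase, 0.088 ± 0.28 (log2 fold change, SE).

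Further down, TPI1, which interconverts the triose phosphates, had values of 11.69, 11.76 and 11.71 in CDd14, against 12.09, 12.42 and 12.28 in CDd7. Its CDd14 pools were nearly equal and all below CDd7, 1.46-fold lower (limma adjusted p = 0.0353). The next enzymes did not pass. GAPDH, which oxidises triose phosphate, had a log2 fold change of -0.43 ± 0.19, PGK1, a kinase that makes ATP, 0.093 ± 0.19, PGAM1, a mutase, -0.24 ± 0.14, ENO1, an enolase, -0.19 ± 0.19, and PKM, pyruvate kinase, -0.41 ± 0.20 (SE). In GAPDH, PGAM1 and PKM all CDd14 pools still lay below all CDd7 pools.

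Both lactate dehydrogenase genes fell, on the probe set that stands for each. LDHB, the heart-type subunit, had values of 13.05, 12.94 and 13.25 in CDd14, against 14.01, 14.03 and 13.80 in CDd7. The gap between the groups was wider than the range of either, and CDd14 was 1.82-fold lower (log2 fold change -0.87 ± 0.18 SE, limma adjusted p = 0.00909). LDHA, the muscle-type subunit, had values of 12.13, 13.14 and 13.08 in CDd14, against 14.12, 14.27 and 14.23 in CDd7. Pool 1 of CDd14 was the lowest of the 12 arrays, and CDd14 was 2.68-fold lower (limma adjusted p = 0.00904). Of its other kept probe sets, the first differed by 0.36 (limma adjusted p = 0.181) and the other by -0.035 (limma adjusted p = 0.915), so neither showed this fall. With the 3 averaged, LDHA had -0.37 and did not pass (limma adjusted p = 0.0844).

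**Figure D2:**
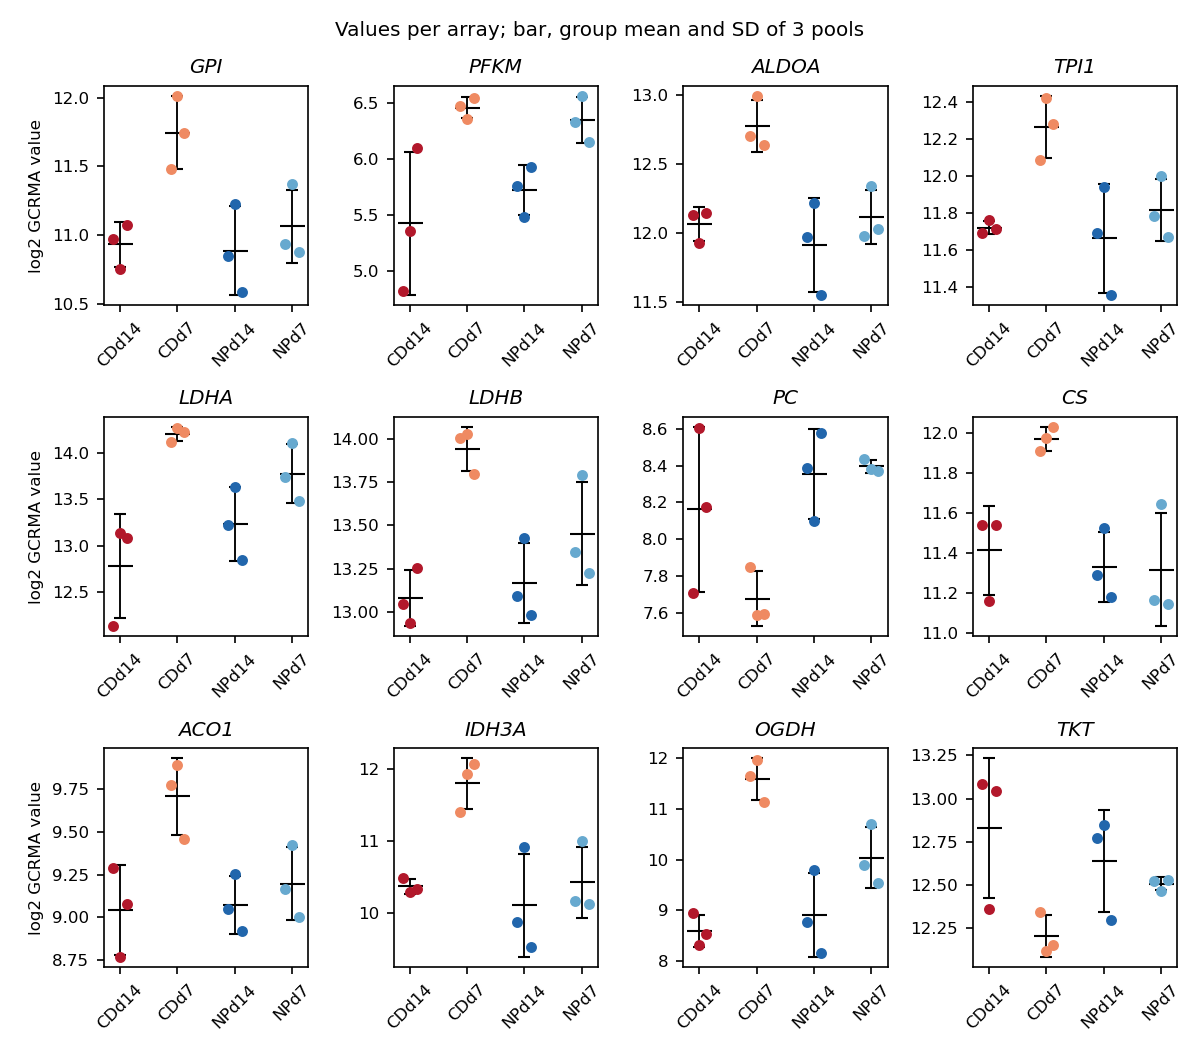
Log2 GCRMA values of 12 members, 1 point per pool, in CDd14, CDd7, NPd14 and NPd7, with the group mean and SD as bars. The genes are the 10 that fell between days in calf-delivering heifers, with PC and TKT, and for OGDH the CDd7 pools are the 3 highest of the 12 arrays.

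At the pyruvate node 0 of 8 genes passed between days in CD (limma), with 4 at an unadjusted p under 0.05, as had 39.3% of all kept genes. Of pyruvate dehydrogenase, PDHA1 and PDHB, the subunits of its first component, had log2 fold changes of 0.18 ± 0.21 and -0.40 ± 0.14, and DLAT and DLD, its later components, -0.28 ± 0.18 and -0.50 ± 0.19 (SE). PDHB had all CDd14 pools below CDd7 (limma adjusted p = 0.0546). PDK4, a kinase that switches pyruvate dehydrogenase off, described after its values were seen, had values of 9.48, 9.68 and 9.31 in CDd14, against 7.77, 8.37 and 9.03 in CDd7. All CDd14 pools were above all CDd7 pools, by 1.10 ± 0.37 on the log2 scale, and the difference missed the threshold (limma adjusted p = 0.0528). It passed without CDd7 pool 3 (limma adjusted p = 0.0221) and without NPd7 pool 2 (0.0389). Its other kept probe sets had 1.0 and 1.51 (limma adjusted p = 0.128 and 0.103). PDK2, a related kinase, had 0.0051 ± 0.16, PC, which turns pyruvate into oxaloacetate, 0.48 ± 0.21, and PCK2, which turns oxaloacetate into phosphoenolpyruvate in mitochondria, -0.77 ± 0.39.

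The citric acid cycle held the largest change of the 39 members, in OGDH, the first component of the oxoglutarate dehydrogenase complex. OGDH had values of 8.94, 8.31 and 8.53 in CDd14, against 11.65, 11.97 and 11.14 in CDd7. The CDd7 pools were the 3 highest of the 12 arrays, and CDd14 was 7.95-fold lower (log2 fold change -2.99 ± 0.42 SE, limma adjusted p = 0.00283). IDH3A, the catalytic subunit of the NAD-dependent isocitrate dehydrogenase, had values of 10.49, 10.29 and 10.34 in CDd14, against 11.40, 11.93 and 12.06 in CDd7. The CDd14 pools were close together and all lower, 2.68-fold (limma adjusted p = 0.0185), and its other kept probe set had -0.99 (limma adjusted p = 0.0511). IDH3G, a regulatory subunit of the same enzyme, had 0.17 ± 0.14.

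CS, citrate synthase, the entry to the cycle, had values of 11.54, 11.16 and 11.54 in CDd14, against 11.91, 11.97 and 12.03 in CDd7. The groups were apart, 1.47-fold lower in CDd14 (limma adjusted p = 0.0378), and its dimmer probe set fell by 1.35 on the log2 scale (limma adjusted p = 0.0169). ACO1, the cytosolic aconitase, which also serves as an iron sensor, had values of 9.29, 8.77 and 9.08 in CDd14, against 9.77, 9.89 and 9.46 in CDd7. All CDd14 pools were below all CDd7 pools, 1.59-fold (limma adjusted p = 0.0257).

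The other cycle enzymes among the members did not pass on the probe set that stands for them. IDH2, the mitochondrial NADP-dependent isocitrate dehydrogenase, described after its values were seen, had values of 9.01, 8.34 and 8.40 in CDd14, against 10.11, 10.62 and 9.81 in CDd7. Its groups were apart, while its NPd14 pools ran from 6.68 to 9.15, and the log2 fold change was -1.60 ± 0.56 (SE, limma adjusted p = 0.0617). IDH2 passed without NPd14 pool 2 (limma adjusted p = 0.0345), without NPd14 pool 3 (0.0128) and with only the 6 CD arrays in the fit (0.0176). IDH1, its cytosolic counterpart, had 0.73 ± 0.36, and its other kept probe sets 0.94 and -0.44, so they differed in sign (limma adjusted p = 0.136 and 0.193). The subunits of succinyl-CoA synthetase differed in sign too, with SUCLG1 at -0.32 ± 0.12, SUCLA2 at -0.17 ± 0.11 and SUCLG2 at 0.31 ± 0.13. FH, fumarase, had -0.20 ± 0.17, and MDH2, malate dehydrogenase, -0.40 ± 0.28, while the dimmer probe set of MDH2 fell by 0.76 (limma adjusted p = 0.0314).

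In the pentose phosphate pathway 0 of 3 genes passed between days in CD (limma), with 2 at an unadjusted p under 0.05, against the same 39.3% of all kept genes. TKT, transketolase, which exchanges sugar fragments with glycolysis, had values of 13.08, 12.36 and 13.04 in CDd14, against 12.34, 12.12 and 12.15 in CDd7. All CDd14 pools were higher, pool 2 only just, by 0.62 ± 0.21 (SE, limma adjusted p = 0.0512). TKT passed without CDd14 pool 2 (limma adjusted p = 0.0149) and without NPd14 pool 3 (0.0337). PGD, the phosphogluconate dehydrogenase that yields NADPH, had -0.63 ± 0.41 and TALDO1, transaldolase, -0.35 ± 0.14, both with all CDd14 pools below CDd7.

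Of the 10 falls, those of LDHA, LDHB and OGDH passed in each of the 12 fits that left out 1 array. The count of members called was 3 without CDd7 pool 2, 4 without CDd14 pool 2 (3 lower and 1 higher) and 5 without CDd14 pool 3. Calls over all kept probe sets ran from 1291 to 3733 in the 12 fits, against 3231 with all arrays. Without CDd7 pool 2 the other 7 falls, of GPI, PFKM, ALDOA, TPI1, CS, ACO1 and IDH3A, no longer passed. Other single arrays ended some of these calls too. CS missed the threshold without any 1 of the 6 CD arrays and without NPd14 pool 1, and TPI1 when pool 1 of NPd14 or of NPd7 or any CD array except CDd7 pool 1 was left out. PFKM missed it without CDd14 pool 1 or 2 or any CDd7 pool, and ACO1 without CDd14 pool 2 or 3 or CDd7 pool 1. GPI missed it without CDd14 pool 2, and ALDOA and IDH3A without CDd14 pool 2 or 3. With all pools of both days kept, PFKM and ACO1 missed the threshold when only the CD arrays were fitted (limma adjusted p = 0.0698 and 0.0571), and TPI1 and CS without the filter on dim probe sets (0.0513 and 0.0572). Epithelial markers were higher in CDd14 on 9 of 9 genes, with a mean level of the list of 11.88 to 12.22 in CDd14 and 11.32 to 11.47 in CDd7. Leukocyte markers were higher on 9 of 9, with 7.77 to 8.19 in CDd14 and 5.33 to 7.17 in CDd7. Stromal markers had 6.55 to 7.49 in CDd14 and 5.85 to 7.20 in CDd7. CLDN5, the endothelial marker kept, had values of 2.05, 2.03 and 1.66 in CDd14, all under the filter, against 7.21, 5.78 and 6.17 in CDd7, a difference of -4.48 that is larger than that of any member (limma adjusted p = 0.00176). The endothelial markers PECAM1, CDH5, VWF, TEK, KDR and EMCN lay under the filter on all arrays, with a highest value of 3.59, so CLDN5 alone stands for this cell type. MYLK, the smooth muscle marker, and GYPC, a red cell marker, did not pass (limma adjusted p = 0.792 and 0.488). The part of these cell types in the falls was not tested.

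**Figure D3:**
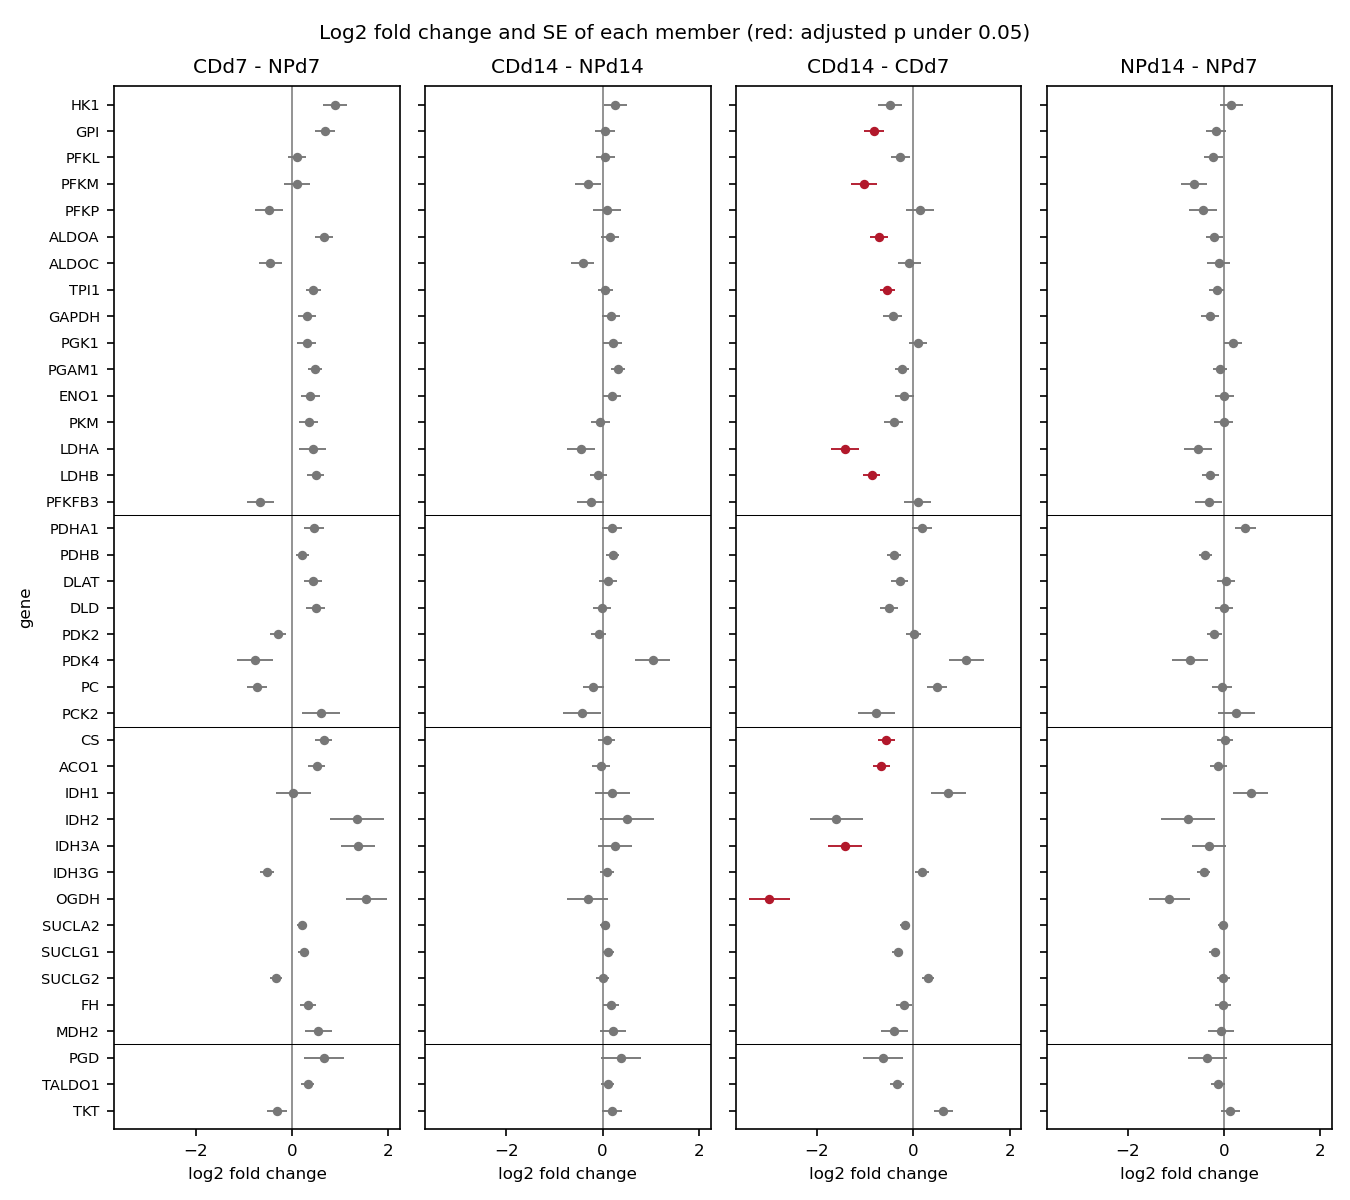
Log2 fold change of each of the 39 members (point) with its SE (line) in the 4 pairwise comparisons, red where the limma adjusted p is under 0.05, with branches separated by lines. Red points occur in CDd14 minus CDd7 alone, 10 of 39, all below 0.

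The comparison of CDd7 with NPd7 addresses whether the endometrium of heifers with a later calf differed at day 7, a cycle before transfer. It shares the CDd7 arrays with the comparison above. Most members stood higher in CDd7 (30 of 39, or 76.9%, against 48.7% of all kept genes). Of 39 members 0 passed the threshold (limma), against 3.48% of all kept genes. At an unadjusted p under 0.05, 14 members were higher and 4 lower, which is 35.9% and 10.3%, against 14.6% and 15.8% of all kept genes. All CDd7 pools lay above all NPd7 pools in 51.3% of members and 16.7% of all kept genes, and below them in 10.3% and 18.6%. The median log2 fold change was 0.36 for glycolysis, 0.33 for the pyruvate genes, 0.43 for the citric acid cycle and 0.32 for the pentose phosphate genes, against -0.012 over all kept genes.

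The largest differences at day 7 were in the cycle. OGDH had values of 11.65, 11.97 and 11.14 in CDd7, against 9.89, 10.69 and 9.54 in NPd7, which is 1.55 ± 0.42 higher on the log2 scale (SE, limma adjusted p = 0.0618). IDH3A had values of 11.40, 11.93 and 12.06 in CDd7, against 10.17, 11.00 and 10.13 in NPd7 (1.36 ± 0.35, limma adjusted p = 0.0556). In both genes the groups were apart, with NPd7 pool 2 nearest to CDd7. CS, with the smallest p of the branch, had values of 11.91, 11.97 and 12.03 in CDd7, against 11.16, 11.64 and 11.14 in NPd7 (0.66 ± 0.17, limma adjusted p = 0.0556), and its groups were apart too. IDH2 differed by 1.35 ± 0.56 (limma adjusted p = 0.140). IDH3G, described after its values were seen, had values of 9.75, 9.69 and 9.88 in CDd7, against 10.48, 9.97 and 10.39 in NPd7. Here all CDd7 pools were lower (-0.51 ± 0.14, limma adjusted p = 0.0609), opposite in sign to IDH3A of the same enzyme.

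In glycolysis the largest difference at day 7 was in HK1, described after its values were seen, with values of 11.44, 11.88 and 11.32 in CDd7, against 10.63, 10.88 and 10.46 in NPd7. The pools did not overlap (log2 fold change 0.89 ± 0.24 SE, limma adjusted p = 0.0604). GPI, ALDOA, PGAM1, TPI1 and LDHB had log2 fold changes of 0.68, 0.66, 0.47, 0.45 and 0.49 with all CDd7 pools higher, and none passed (limma adjusted p = 0.0627 to 0.106). PFKFB3, PFKP and ALDOC had -0.66, -0.48 and -0.45, with groups that overlapped. LDHA had 0.43 on its brightest probe set and -0.48 and -0.58 on the other 2.

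PC was the pyruvate gene with the smallest p at day 7, with values of 7.85, 7.59 and 7.60 in CDd7, against 8.44, 8.38 and 8.37 in NPd7. The NPd7 pools were nearly equal and all above CDd7 (log2 fold change -0.72 ± 0.21 SE, limma adjusted p = 0.0699). PDK4 had -0.77 ± 0.37 (limma adjusted p = 0.187) with groups that overlapped. Of the pentose phosphate genes, PGD (0.66 ± 0.41) and TALDO1 (0.32 ± 0.14) had all CDd7 pools higher and TKT (-0.30 ± 0.21) all CDd7 pools lower, and none passed.

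The count at day 7 depended on single arrays. It was 0 with all 12 arrays, 9 without NPd7 pool 2 (7 higher and 2 lower), 6 without NPd14 pool 2, 4 without NPd14 pool 3 and 1 without CDd7 pool 3. OGDH, IDH3A and HK1 were among the genes called without NPd7 pool 2, NPd14 pool 2 and NPd14 pool 3, CS among those without NPd7 pool 2 and NPd14 pool 2, and IDH3G among those without NPd7 pool 2. In the other fits that left out 1 array it was 0 (limma), with 9 to 20 members at an unadjusted p under 0.05. Calls over all kept probe sets moved as well, from 0 to 1662 when 1 array was left out, against 503 with all 12 arrays. The shift in the members' count is therefore not shown to be particular to them. Stromal markers were lower in CDd7 on 10 of 10 genes, 7 of them past the threshold, with a mean level of the list of 5.85 to 7.20 in CDd7 and 8.78 to 10.06 in NPd7. Leukocyte markers were lower on 9 of 9, with 5.33 to 7.17 in CDd7 and 7.21 to 8.65 in NPd7. Epithelial markers were lower on 6 of 9 and higher on 3, with 0 past the threshold. Their mean level was 11.32 to 11.47 in CDd7 and 11.49 to 11.63 in NPd7. CLDN5, the only endothelial marker kept, was higher in CDd7, as most members were, by 2.37 (log2, limma adjusted p = 0.0368). MYLK was lower in CDd7 (-3.23, limma adjusted p = 0.0368), and so was GYPC (-0.98, limma adjusted p = 0.0434). AHSP, the other red cell marker kept, differed by -0.057 (limma adjusted p = 0.714). The red cell markers HBB, HBA, HBG and ALAS2 lay under the filter, with a highest value of 2.72. The part of these cell types in the members' differences was not tested.

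**Figure D4:**
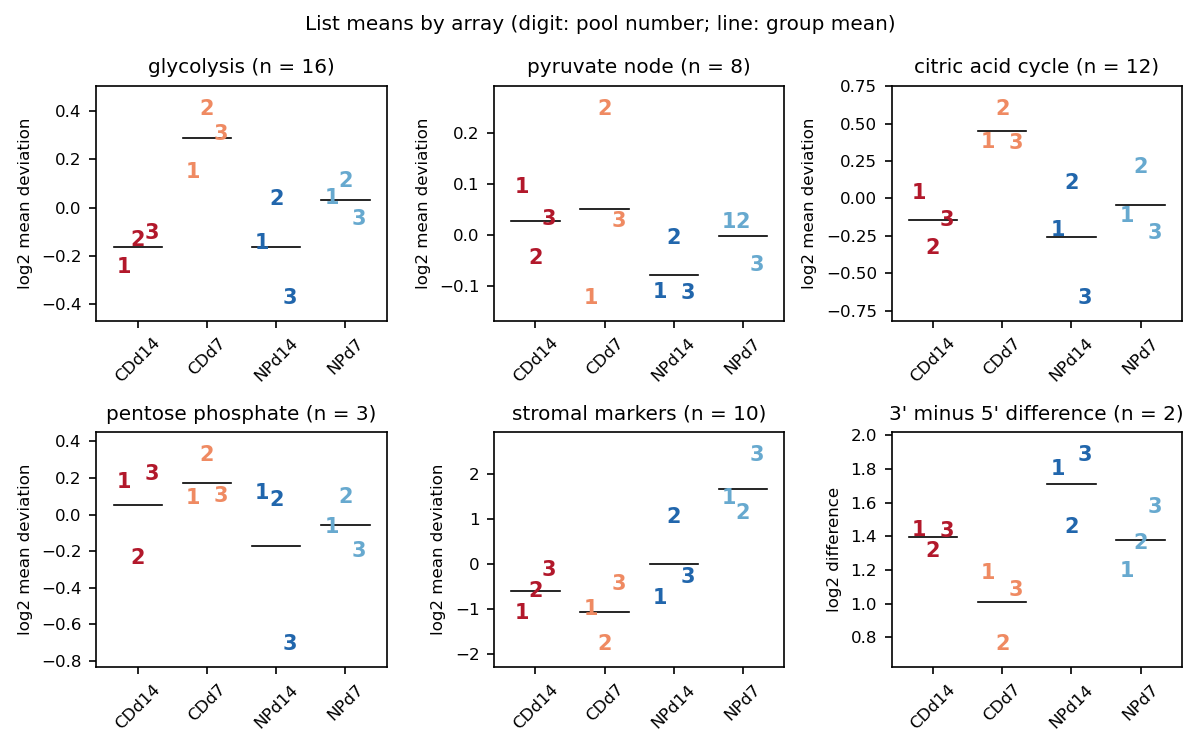
Mean log2 deviation of the members of each branch, and of the stromal markers, from the mean over 12 arrays, with the 3′ minus 5′ value of the EF1A and GAPDH controls in the last panel. Digits are pool numbers and lines group means. The CDd7 pools lie at 0.37 to 0.60 for the citric acid cycle genes, above all other arrays, and have the 3 lowest 3′ minus 5′ values.

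At day 14, 26 of 39 members were higher in CDd14 than in NPd14 (66.7%, against 55.4% of all kept genes). Between CDd14 and NPd14 0 of 39 passed (limma), against 0.0147% of all kept genes, and 2, PDK4 and PGAM1, had an unadjusted p under 0.05 (5.13%, against 6.34% of all kept genes). PDK4 had values of 9.48, 9.68 and 9.31 in CDd14, against 7.92, 8.85 and 8.59 in NPd14. It was the 1 member whose groups did not overlap there (2.56% of members, against 4.85% of all kept genes), with CDd14 higher by 1.04 ± 0.37 on the log2 scale (SE, limma adjusted p = 0.563). Its other kept probe sets had 1.20 and 1.70 (limma adjusted p = 0.592 and 0.578). PGAM1 had 0.32 ± 0.14 (limma adjusted p = 0.675). The median log2 fold change was 0.10 over the members and 0.025 over all kept genes. That of glycolysis was 0.058, and -0.095 without NPd14 pool 3 or 0.21 without NPd14 pool 2.

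Between days in heifers without a pregnancy, 0 of 39 members passed (limma), against 0.133% of all kept genes. In NPd14 30 members were lower than in NPd7 (76.9%, against 59.2% of all kept genes) and 9 higher. The members' median log2 fold change was -0.13, against -0.064 over all kept genes. PFKM, PDHB, IDH3G and OGDH had an unadjusted p under 0.05, all lower (10.3% of members, against 11.3% of all kept genes). OGDH had values of 8.76, 9.80 and 8.16 in NPd14, against 9.89, 10.69 and 9.54 in NPd7, and the groups overlapped (log2 fold change -1.13 ± 0.42 SE, limma adjusted p = 0.237). PDHB, described after its values were seen, had values of 8.94, 8.92 and 8.59 in NPd14, against 9.28, 9.22 and 9.11 in NPd7. Its groups were apart, at -0.39 ± 0.14 (limma adjusted p = 0.211). Without NPd14 pool 3, the median of the glycolysis genes was -0.024 in place of -0.19, and that of the pentose phosphate genes 0.16 in place of -0.13.

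The difference of the day effects, CD minus NP, was tested directly. Of 39 members 0 passed (limma), as did 0% of all kept genes, and 5 had an unadjusted p under 0.05 (12.8%, against 14.5% of all kept genes). PDK4 had the smallest p of the members, at 1.80 ± 0.52 (SE, limma adjusted p = 0.262). OGDH had -1.86 ± 0.60 (limma adjusted p = 0.284), so its fall in CD is not shown to differ from its day effect in NP. CS had -0.57 ± 0.24 and LDHB -0.58 ± 0.25 (limma adjusted p = 0.330 and 0.340).

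**Figure D5:**
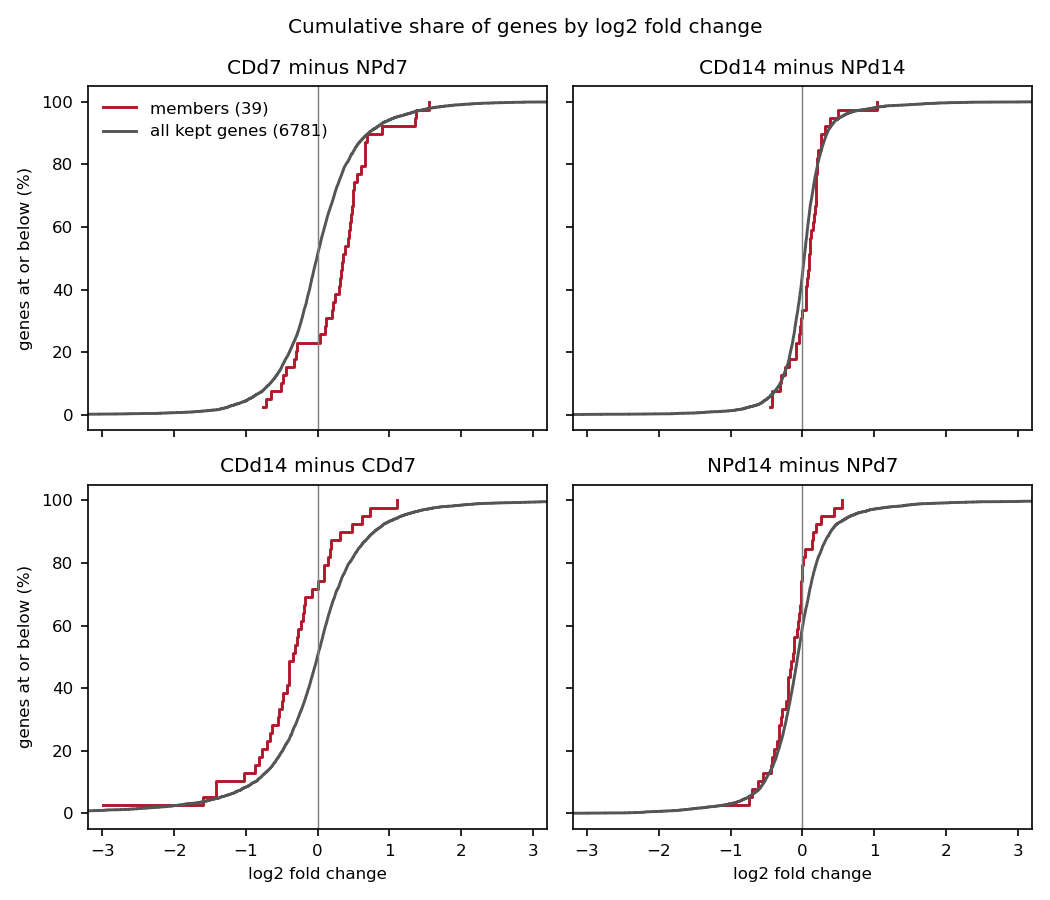
Cumulative share of genes (percent) by log2 fold change for the 39 members (red) and all 6781 kept genes (grey) in the 4 pairwise comparisons. The members' median is 0.35 in CDd7 minus NPd7 and -0.35 in CDd14 minus CDd7, against -0.012 and -0.0042 over all kept genes.

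Other genes of the pathway were taken from lists of carriers, further enzymes, glycogen and polyol enzymes, and regulators, of which 58 of 110 were kept. Between days in CD, 7 of 58 rose and 12 fell, against 9.87% and 14.2% of all kept genes. Of 10 carriers 2 rose and 3 fell, of 25 further enzymes 0 and 3, of 10 glycogen and polyol genes 2 and 2, and of 13 regulators 3 and 4. PFKFB2, which like PFKFB3 sets the level of an activator of phosphofructokinase, had values of 8.71, 9.30 and 8.79 in CDd14, against 12.84, 12.64 and 11.64 in CDd7, a 10.9-fold fall with groups far apart (limma adjusted p = 0.00413). PYGL, a glycogen phosphorylase, fell 3.09-fold (limma adjusted p = 0.00176), SLC25A11, which exchanges oxoglutarate for malate across the mitochondrial membrane, 4.80-fold (0.00287), and PPARGC1A, a coactivator of mitochondrial genes, 3.89-fold (0.00485). NDRG1, a gene induced by low oxygen, rose 3.35-fold (limma adjusted p = 0.00213). PPP1R3C, which directs a phosphatase to glycogen, rose to 5.43, 4.77 and 5.25 in CDd14, against 2.92, 3.08 and 3.15 in CDd7, values under the filter (limma adjusted p = 0.00492).

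Some further genes are given after their values were seen. SDHB, the iron-sulphur subunit of succinate dehydrogenase, had values of 11.62, 11.37 and 11.63 in CDd14, against 12.42, 12.40 and 12.22 in CDd7, 1.75-fold lower with groups apart (limma adjusted p = 0.0108). SLC5A1, a sodium-glucose cotransporter, had values of 12.98, 11.26 and 12.45 in CDd14, against 7.54, 7.86 and 9.14 in CDd7. All its CDd14 pools were higher, 16.6-fold (limma adjusted p = 0.0204), so this carrier and the enzymes that fell changed in opposite directions. The call of SLC5A1 ended without CDd14 pool 1 or 3, without CDd7 pool 1 or 2 and without the filter on dim probe sets, with limma adjusted p-values of 0.0506 to 0.0742. SLC2A1, a facilitative glucose transporter, had 2.41 ± 0.83 and missed the threshold (limma adjusted p = 0.0583). SLC16A1, a carrier of lactate and pyruvate, had values of 9.46, 4.90 and 8.39 in CDd14, against 2.56, 2.53 and 2.54 in CDd7. The CDd7 values lay under the filter, and CDd14 pool 2 lay far below the other CDd14 pools (limma adjusted p = 0.0164). Its call ended without CDd14 pool 1, CDd14 pool 3 or CDd7 pool 2 (limma adjusted p = 0.0508, 0.0582 and 0.0566).

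At day 7 by outcome, 2 of the 58 rose and 3 fell, against 3.48% of all kept genes called in either direction. SLC25A11 had values of 9.64, 9.99 and 9.57 in CDd7, against 8.21, 8.79 and 7.90 in NPd7, 2.70-fold higher (limma adjusted p = 0.0447). BNIP3, a mitochondrial protein of mitophagy, was 1.44-fold higher (limma adjusted p = 0.0449). MYC, a transcription factor of growth, was 2.53-fold lower (limma adjusted p = 0.0401) and NDRG1 1.87-fold lower (0.0489). PPP1R3C was lower as well, with CDd7 under the filter (limma adjusted p = 0.0285). All 5 calls ended without CDd7 pool 2, without NPd7 pool 1 and without NPd7 pool 3, with a limma adjusted p of 0.0892 for PPP1R3C without NPd7 pool 1 and up to 0.200 for NDRG1 without NPd7 pool 3. Leaving out CDd14 pool 3 ended them too. Each CDd14 array and NPd14 pool 1 ended the calls of MYC, SLC25A11, BNIP3 and NDRG1, as did CDd7 pool 1 for all of these but BNIP3 and CDd7 pool 3 for BNIP3. All 5 calls also ended when only the arrays compared were fitted (limma adjusted p = 0.0926 to 0.100), those of PPP1R3C, MYC, SLC25A11 and NDRG1 without the filter on dim probe sets (0.0533 to 0.0782), and that of BNIP3 with quantile normalization (0.0629). Between outcomes at day 14 and between days in NP, 0 of the 58 passed (limma), with 5 and 10 at an unadjusted p under 0.05, against 6.34% and 16.5% of all kept genes.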

How the data were processed

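Affymetrix bovine arrays of 12 endometrial RNA pools were used, 3 in each of 4 groups. The deposited values are on a log2 scale and come from GCRMA, a method of background correction, normalization and probe summary, per the submitters' processing notes. These notes also list limma, and no versions. Since GCRMA shrinks dim signals to a floor, folds from dim levels depend on that floor.

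From 24128 probe sets, 112 control probe sets were left out. Probe sets above a log2 value of 4 on at least 3 arrays were kept (13449 of 24016), and each gene was represented by its kept probe set with the highest mean (6781 genes). limma 3.58.1 in R 4.3.3 fitted 4 group means over all 12 arrays, with 5 contrasts, default empirical Bayes moderation and two-sided p-values adjusted by Benjamini-Hochberg over all 13449 kept probe sets. The fit was run on simulated data with independent noise for each probe set. The simulated data held no array that shifted many genes together, so they do not test the fit for such arrays. The number of arrays limits the precision.

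The members and gene lists were chosen with earlier results of these data known. Every member is named. Values per array were given for members past the threshold in any pairwise comparison (all 12 arrays in the plot, the groups compared in the text) and, for the 2 branches with no such member, for the gene with the smallest p over these comparisons, PC and TKT. Of the other pathway genes, up to 6 per contrast with the smallest p are named. Other genes with values per array were chosen after their values were seen. Pool numbers came from the sample titles, and 1 CDd14 title that carries 2 different numbers was read by its replicate number. Same-numbered NPd14 and NPd7 pools deviated together (correlations of 0.161 to 0.619 over probe sets). Same-numbered CDd7 and NPd7 pools, which differ in outcome, reached 0.363. Whether equal numbers mark the same heifers is therefore not known, and the main fit used no pairing. In each pair of groups other than NPd14 and NPd7, at least 1 correlation was under 0.1. Alternatives were other filters, moderation, quantile normalization, a replicate block, averaging a gene's probe sets, only the arrays compared, and leaving out arrays. No genome coordinates or sequences were used.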

Additional observations from a re-analysis of the deposited data

Results flagged for a closer look

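IDH3G, a regulatory subunit of the NAD-dependent isocitrate dehydrogenase, had day differences of opposite sign in the 2 outcome groups, neither past the threshold (CD 0.17, limma adjusted p = 0.379; NP -0.43, 0.195). All CDd14 pools lay above all CDd7 pools, by less than 0.01 between the nearest pools, and all NPd14 pools lay below all NPd7 pools. The difference of the day effects, CD minus NP, was 0.60 on the log2 scale, and its direct test did not pass (limma adjusted p = 0.290).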

How the results depend on the processing

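For CDd14 minus CDd7 the main count of 10 members called ran from 9 to 13 with other filters, moderation, normalization, the replicate block, averaged probe sets or only the arrays compared, and from 3 to 14 when 1 array was left out. Over all kept probe sets the count was 3231 in the main fit and ran from 1291 to 3733 when 1 array was left out. The members' count was 5 without CDd7 pool 2 and NPd14 pool 3 together, an alternative chosen after seeing the data. For CDd7 minus NPd7 the main count of 0 (limma, 18 at an unadjusted p under 0.05) became 2 with trend and robust moderation, 1 with averaged probe sets and 5 with the replicate block, and ran from 0 to 9 when 1 array was left out. Over all kept probe sets it was 503 in the main fit and ran from 0 to 1662 when 1 array was left out. The labels do not say whether equal pool numbers mark pairs. In NPd14 minus NPd7, where same-numbered pools deviated together, 0 members passed with or without the replicate block. The block fitted an effect of the pool number common to all 4 groups, so it does not test pairing within NP. In CDd14 minus CDd7 CS missed the threshold with the block (limma adjusted p = 0.0506). For the other 3 contrasts the count was 0 throughout, with 0 to 14 members at an unadjusted p under 0.05 when 1 array was left out. The named pathway genes past the threshold and the genes given with values per array were run too, 28 genes in 36 pairs of gene and contrast. None of these changed sign under the alternatives: 585 values stayed on the same side of the threshold, 101 lost the call and 32 gained it. The cause of these shifts was not tested. ALDOC lies near the filter on dim probe sets, and 3 arrays a group limit what can be called.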
